A study of Mus musculus with 12 samples.

Results

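The genes of sterol synthesis and of its control by the sterol regulatory element-binding proteins (SREBPs) were followed across 4 kinds of mouse bone marrow culture. The set was a list of 29 gene symbols that covers the enzymes from acetyl-CoA to cholesterol, the SREBP control proteins and a few genes of cholesterol transport and storage. Its members were all probe sets given to those symbols in the platform annotation of the array. Acat2 and Soat1 are not symbols of that annotation and were dropped, which left 27 genes with 62 of the 45101 probe sets on the array. A gene with several probe sets was read from the one with the highest mean signal. All 27 genes passed a filter on low signals, and so did 59 of their probe sets. Differences were tested with limma in 1 fit over 19990 features, of which 14005 were genes with a symbol.

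Cells make cholesterol from acetyl-CoA through mevalonate, isoprenoid diphosphates, squalene and lanosterol, in a chain of enzymes most of which sit in the endoplasmic reticulum. The genes of these enzymes are switched on by SREBP-2, and by SREBP-1 together with genes of fatty acid synthesis. SREBPs are made as membrane-bound precursors that the escort protein SCAP carries to the Golgi for cleavage when sterols are low, and INSIG proteins hold SCAP back when sterols are plentiful. In bone marrow, proliferating progenitors build new membrane and so use this pathway, whereas mature macrophages take up, store and export much of their cholesterol.

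All 12 cultures were pre-leukemic lines from bone marrow of 5-fluorouracil-treated (C57Bl/6Ly-Pep3b x C3H/HeJ) F1 mice, transduced with NUP98-HOXD13, a leukemia fusion gene, by the ND13-GFP or ND13pac virus. They grew for 4 weeks in medium with 15% fetal bovine serum, 3 cytokines, which were stem cell factor (mSCF, 100 ng/ml), interleukin-3 (mIL-3, 6 ng/ml) and interleukin-6 (hIL-6, 10 ng/ml). Each line then received a second retrovirus during 2 days on E86 producer cells irradiated at 4000 cGy, with protamine sulfate at 5 µg/ml. Total RNA came from sorted cells, with 3 arrays a group, which the series text describes as coming from independent experiments. The control group, MIY-ctrl, received a vector that codes only for the yellow fluorescent protein YFP. MEIS1-WT received the homeobox factor MEIS1, MEIS1-deltaHD a MEIS1 named for lacking its homeodomain, and M33-MEIS1 a fusion of MEIS1 with M33, the older name of the Polycomb protein Cbx2. NUP98-HOXD13 was therefore present in control and construct groups alike, and the serum supplied cholesterol to all of them. Every construct sat in a retroviral vector, and how its level compared with that of the native gene is not known here. For the gate of the sort, and for the time from the second virus to RNA, the sources used here give nothing.

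The values are array signals on a linear scale, and each array had a 2% trimmed mean of 100. Median signal ranged from 13.1 to 21.6 over the 12 arrays, and arrays of a group correlated at 0.982 to 0.989. Of 3 Meis1 probe sets, 0 passed as higher and 2 as lower with each construct, and whether these probe sets detect the inserted RNA is not known. The brightest of them gave 187 ± 18.4 (SD, n = 3) in control and 141 ± 10.4 with MEIS1-WT. Cbx2 had a probe set at 7.12 ± 5.47 in control cells and 51.3 ± 9.60 in M33-MEIS1 cells (log2 difference 1.56, limma adjusted p = 5.85e-05). The brighter Cbx2 probe set, at 82.1 ± 20.2 and 63.9 ± 10.3 in these groups, did not pass (log2 difference -0.28, adjusted p = 0.281), so the Cbx2 probe sets disagree. All 8 blood cell genes listed as markers were measured, with Ptprc between 1507 and 3127. Of 12 fibroblast genes, listed because E86 is a fibroblast line, Pdgfrb read 137 to 365 and the other 11 at most 28.8 on any array. In bulk RNA, fewer cells of a type and less RNA per cell cannot be told apart, and this holds for every difference given here.

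The chain from acetyl-CoA to cholesterol was higher in the cells of each construct than in cells with the empty vector. Of 19 enzyme genes, 17 were higher in MEIS1-WT cells, 17 in MEIS1-deltaHD cells and 17 in M33-MEIS1 cells. The genes of SREBP-1, SREBP-2, SCAP and INSIG1 were higher too, and the lysosomal cholesterol exporters Npc1 and Npc2 were lower. Cyp51, the sterol demethylase that acts on lanosterol, had 3.86 times its control signal with MEIS1-WT. Dhcr7, the reductase of a last step to cholesterol, had 4.01 times its control signal there.

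Among all 27 genes, 22 were higher and 2 lower with MEIS1-WT, where 13.3% and 19.4% of all features passed in these directions. With MEIS1-deltaHD, 22 were higher and 3 lower, beside 13.8% and 22.7% of all features. With M33-MEIS1, 22 were higher and 3 lower, beside 12.4% and 18.3% of all features. The median log2 difference of the 27 genes was 1.21, 0.88 and 1.03 in that order, and that of all features was -0.12, -0.17 and -0.13. A gene passed where limma's p, adjusted over all features by Benjamini-Hochberg, was below 0.05. The 3 comparisons share the 3 control arrays, so a control array that strays moves all of them at once. The direction of change over all features hung on the scaling: with each array scaled by its median instead, 77.4%, 82.2% and 80.7% of all calls were higher in the 3 comparisons, against 40.7%, 37.8% and 40.3% with the authors' scaling. Quantile normalization gave 51.1%, 49.7% and 50.7%. The members' count of higher genes was 22, 22 and 23 with quantile normalization and 23 in each comparison with median scaling.

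**Figure D1:**
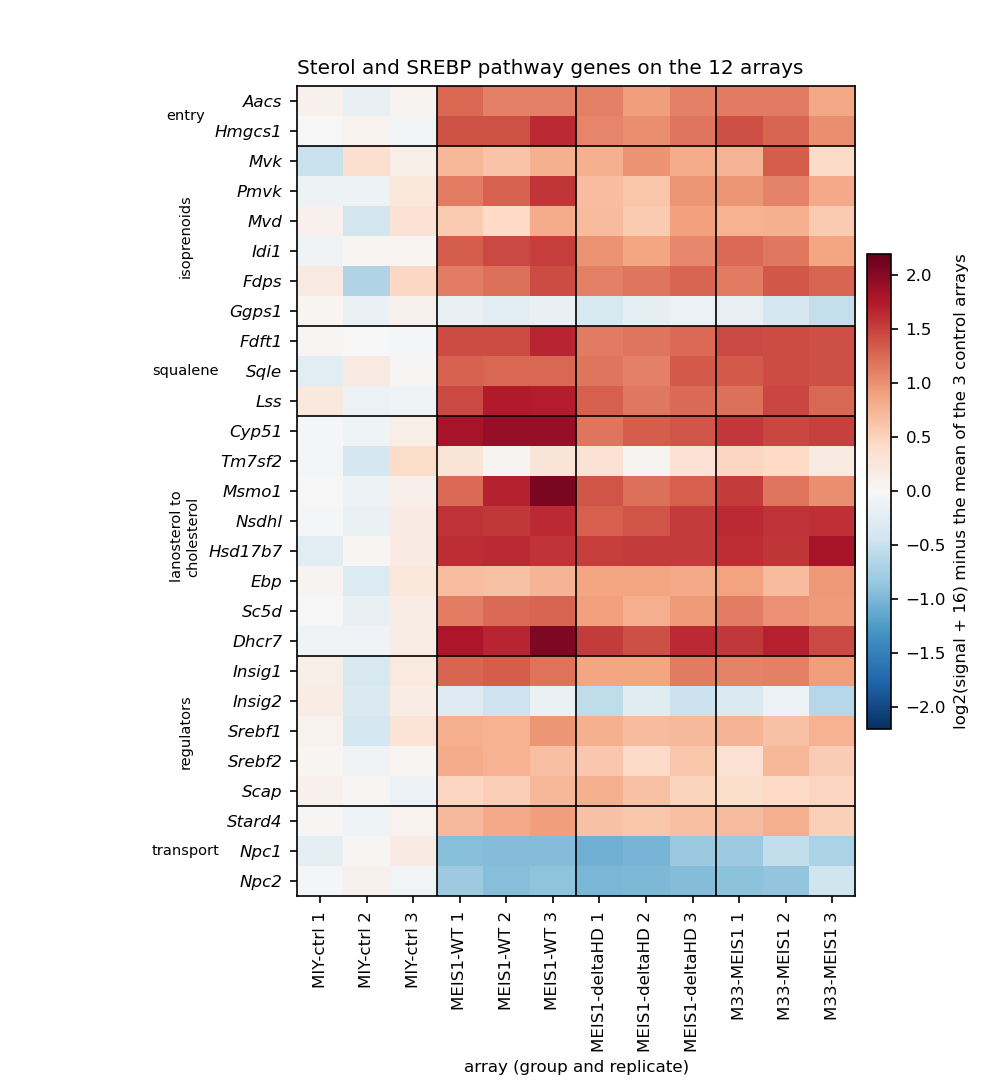
Each cell gives the log2(signal + 16) of a gene on 1 array minus the mean of that gene over the 3 control arrays, for 27 genes in rows grouped by role and 12 arrays in columns. The 9 construct columns are red in most rows, pale in the rows of Ggps1, Tm7sf2 and Insig2, and blue in the rows of Npc1 and Npc2.

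Promoter windows were read to see what these genes share in sequence. RefSeq windows on GRCm38.p6, from 250 bases before to 50 after the start, were on hand for 22 of the 27 genes. The list of motifs was widened after the values were seen by the shorter sterol motif and the MEIS motif. Each motif was searched on both strands of these 300-base windows. CCAAT, the site of the factor NF-Y, a known partner of SREBPs, was in the windows of 20 genes (90.9%), against 42.1% of 11301 tested genes with a window. Aacs and Scap had none. GGGCGG, the GC box bound by Sp1, was in 86.4% of the members and 63.3% of the genes. The sterol regulatory element TCACNCCAC was in 1 member (4.55%), Hmgcs1, and in 1.38% of the genes. Its shorter form TCACNCCA, which lies inside the longer one, was in Hmgcs1, Msmo1 and Srebf2 (13.6% of members, 4.65% of genes). CACGTG, the E-box, was in 22.7% of members and 10.9% of genes. TGACAG, the core that MEIS proteins bind, was in 8 members (36.4%), against 20.2% of genes. The 8 include every member with more than 1 window, namely Pmvk, Dhcr7, Insig2, Srebf1 and Scap. The others were Lss, Ebp and Npc2. Genes with several starts had several windows, which gives them more bases in which to hold a motif. A match is a description of letters, and binding was not measured.

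The 200 bases before the start are printed for the 3 genes with the short sterol motif, for 3 enzymes that rose without it, and for 2 genes that show the limits of the CCAAT count. Capitals mark CCAAT, or ATTGG where it lies on the other strand, and TCACNCCA. Hmgcs1, Srebf2 and Msmo1 hold the sterol motif 137, 162 and 177 bases before the start. They lie at chr13:119690151-119690350 (plus strand), chr15:82147069-82147268 (plus strand) and chr8:64733579-64733778 (minus strand).
Hmgcs1: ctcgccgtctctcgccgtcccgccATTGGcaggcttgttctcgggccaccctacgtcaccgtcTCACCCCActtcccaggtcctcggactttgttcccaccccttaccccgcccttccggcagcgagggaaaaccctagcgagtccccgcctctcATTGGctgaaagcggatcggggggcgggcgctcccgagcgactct
Srebf2: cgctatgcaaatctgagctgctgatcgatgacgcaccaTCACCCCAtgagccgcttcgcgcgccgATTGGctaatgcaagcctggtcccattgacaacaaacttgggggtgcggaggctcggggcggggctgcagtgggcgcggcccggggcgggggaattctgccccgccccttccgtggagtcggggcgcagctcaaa
Msmo1: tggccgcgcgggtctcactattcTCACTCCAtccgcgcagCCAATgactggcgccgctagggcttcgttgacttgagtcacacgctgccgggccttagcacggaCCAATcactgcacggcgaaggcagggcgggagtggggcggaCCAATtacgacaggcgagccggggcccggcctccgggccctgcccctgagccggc
Cyp51, Idi1 and Lss rose and hold CCAAT but not TCACNCCA in this stretch, at chr5:4104698-4104897 (minus strand), chr13:8885406-8885605 (plus strand) and chr10:76531405-76531604 (plus strand).
Cyp51: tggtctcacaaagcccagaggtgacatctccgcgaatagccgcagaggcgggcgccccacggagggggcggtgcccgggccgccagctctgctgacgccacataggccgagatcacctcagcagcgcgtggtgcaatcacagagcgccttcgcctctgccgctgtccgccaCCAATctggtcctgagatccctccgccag
Idi1: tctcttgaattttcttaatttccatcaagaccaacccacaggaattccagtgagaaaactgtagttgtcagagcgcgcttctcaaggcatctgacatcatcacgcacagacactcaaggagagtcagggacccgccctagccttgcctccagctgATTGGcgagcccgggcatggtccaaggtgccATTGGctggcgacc
Lss: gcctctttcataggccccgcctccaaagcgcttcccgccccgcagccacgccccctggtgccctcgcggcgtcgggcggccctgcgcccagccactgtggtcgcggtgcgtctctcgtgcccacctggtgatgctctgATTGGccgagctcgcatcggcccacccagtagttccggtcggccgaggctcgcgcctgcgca
Ggps1, at chr13:14063489-14063688 (minus strand), holds CCAAT on both strands and was higher in no comparison. Aacs, at chr5:125475673-125475872 (plus strand), holds neither motif and was higher in each comparison with control.
Ggps1: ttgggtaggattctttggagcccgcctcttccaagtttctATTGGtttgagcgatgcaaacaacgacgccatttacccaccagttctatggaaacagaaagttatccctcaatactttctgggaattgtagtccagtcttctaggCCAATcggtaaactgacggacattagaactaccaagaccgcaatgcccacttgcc
Aacs: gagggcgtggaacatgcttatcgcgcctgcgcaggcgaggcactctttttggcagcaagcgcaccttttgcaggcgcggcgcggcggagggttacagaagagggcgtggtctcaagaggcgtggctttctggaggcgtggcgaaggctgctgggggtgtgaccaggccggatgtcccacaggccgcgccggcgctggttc

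The entry enzymes feed the pathway from acetyl-CoA, and both rose with each construct. Hmgcs1 encodes the cytosolic synthase that makes HMG-CoA, the precursor of mevalonate. Its signals were 817, 873 and 793 on the control arrays, 2219, 2218 and 2619 on the MEIS1-WT arrays, 1755, 1699.6 and 1902 on the MEIS1-deltaHD arrays and 2235, 2028 and 1702 on the M33-MEIS1 arrays. Every construct array lay above every control array, and the 3 MEIS1-WT arrays lay above the MEIS1-deltaHD arrays. Hmgcs1 differed from control, on the log2(signal + 16) scale used throughout, by 1.49 ± 0.0895 in MEIS1-WT cells, 1.09 ± 0.0895 in MEIS1-deltaHD cells and 1.24 ± 0.0895 in M33-MEIS1 cells (adjusted p = 3.06e-12, 8.54e-10 and 1.51e-10), where ± is the standard error of the fit. Aacs encodes acetoacetyl-CoA synthetase, which activates acetoacetate for lipid synthesis. Its group means were 114 ± 11.9 (SD, n = 3) in control cells, 275 ± 18.6 in MEIS1-WT cells, 253 ± 20.5 in MEIS1-deltaHD cells and 253 ± 29.6 in M33-MEIS1 cells. The log2 differences of Aacs were 1.16, 1.05 and 1.04 in the same order, without overlap of any construct group and control.

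The isoprenoid enzymes turn mevalonate into the building blocks of sterols, prenyl groups and ubiquinone. Of these 6 genes, 5 rose with each construct. Ggps1, which leads away from sterols, did not. Idi1 encodes the isomerase that interconverts the basic isoprene units. Idi1 signals were 490.1, 534 and 536 on the control arrays, 1333, 1441 and 1527 on the MEIS1-WT arrays, 1043, 958 and 1101 on the MEIS1-deltaHD arrays and 1262, 1181 and 965 on the M33-MEIS1 arrays. Control arrays were the lowest, MEIS1-WT arrays the highest, and MEIS1-WT overlapped neither other construct. Idi1 exceeded control by 1.43 ± 0.0893 in MEIS1-WT cells, 0.97 ± 0.0893 in MEIS1-deltaHD cells and 1.10 ± 0.0893 in M33-MEIS1 cells (adjusted p = 5.38e-12, 6.13e-09 and 1.13e-09). Fdps encodes farnesyl diphosphate synthase, whose product stands where the sterol and prenyl branches part. Fdps signals were 998, 544 and 1192 on the control arrays, 1910.0, 2034 and 2366 on the MEIS1-WT arrays, 1889, 1973 and 2121 on the MEIS1-deltaHD arrays and 1937, 2256 and 2129 on the M33-MEIS1 arrays. The second control array was far below the other two, yet all 9 construct arrays lay above the highest control array. Fdps exceeded control by 1.26 ± 0.161 in MEIS1-WT cells, 1.19 ± 0.161 in MEIS1-deltaHD cells and 1.26 ± 0.161 in M33-MEIS1 cells (adjusted p = 1e-06, 2.38e-06 and 1.3e-06).

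Pmvk encodes phosphomevalonate kinase. Pmvk signals were 114, 114 and 148 on the control arrays, 289, 329 and 402 on the MEIS1-WT arrays, 209, 199 and 259 on the MEIS1-deltaHD arrays and 259.5, 285 and 236 on the M33-MEIS1 arrays. No construct array reached down to the control arrays, and the MEIS1-WT arrays stood above both other constructs. Pmvk exceeded control by 1.33 ± 0.123 in MEIS1-WT cells, 0.75 ± 0.123 in MEIS1-deltaHD cells and 0.97 ± 0.123 in M33-MEIS1 cells (adjusted p = 5.44e-09, 2.86e-05 and 1.24e-06). Mvk encodes the kinase that acts before it, and Mvd the decarboxylase that acts after it. Their rises were smaller, with log2 differences of 0.71, 0.86 and 0.83 for Mvk and 0.61, 0.72 and 0.70 for Mvd, in the order used above. Mvk with MEIS1-WT rested on the first control array: without it the log2 difference was 0.47 (limma adjusted p = 0.0597). Ggps1 encodes the synthase of geranylgeranyl diphosphate, a lipid used for protein prenylation. Its means were 167 ± 15.5 (SD, n = 3) in control cells, 144 ± 4.31 in MEIS1-WT cells, 140.0 ± 11.9 in MEIS1-deltaHD cells and 127 ± 17.6 in M33-MEIS1 cells. Only the last of these passed, as a fall by 0.36 ± 0.111 (limma adjusted p = 0.0155). That call was lost without the first or the third control array (adjusted p = 0.0528 and 0.062) or the third M33-MEIS1 array (0.0866), and with quantile normalization (0.066), median scaling (0.909) or the mean of its probe sets (0.0927).

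The 3 enzymes around squalene commit the pathway to sterols, and each rose with each construct. Fdft1, squalene synthase, joins farnesyl diphosphate molecules. Fdft1 signals were 199, 196 and 188 on the control arrays, 551, 555 and 659 on the MEIS1-WT arrays, 450.0, 460.0 and 486 on the MEIS1-deltaHD arrays and 557, 553 and 549 on the M33-MEIS1 arrays. The control arrays were alike and the construct arrays all stood well above them, the MEIS1-deltaHD arrays lowest among these. Fdft1 exceeded control by 1.52 ± 0.0822 in MEIS1-WT cells, 1.19 ± 0.0822 in MEIS1-deltaHD cells and 1.44 ± 0.0822 in M33-MEIS1 cells (adjusted p = 3.91e-13, 4.32e-11 and 2.97e-12). Sqle, squalene epoxidase, is a slow step of the pathway and the target of antifungal allylamines. Sqle signals were 298, 407 and 357 on the control arrays, 888, 871 and 866 on the MEIS1-WT arrays, 812, 776 and 926 on the MEIS1-deltaHD arrays and 921, 973 and 967 on the M33-MEIS1 arrays. Groups with a construct were close to each other here, and none came near the control arrays. Sqle exceeded control by 1.28 ± 0.0913 in MEIS1-WT cells, 1.21 ± 0.0913 in MEIS1-deltaHD cells and 1.40 ± 0.0913 in M33-MEIS1 cells (adjusted p = 6.57e-11, 2.09e-10 and 2.68e-11). Lss, lanosterol synthase, closes the sterol rings. Lss signals were 148, 112 and 115 on the control arrays, 365, 455 and 446 on the MEIS1-WT arrays, 331, 298 and 315 on the MEIS1-deltaHD arrays and 307, 371 and 321 on the M33-MEIS1 arrays. All construct arrays were above control, with MEIS1-WT above MEIS1-deltaHD and overlapping M33-MEIS1. Lss exceeded control by 1.64 ± 0.108 in MEIS1-WT cells, 1.24 ± 0.108 in MEIS1-deltaHD cells and 1.31 ± 0.108 in M33-MEIS1 cells (adjusted p = 1.33e-11, 2.28e-09 and 1.21e-09).

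**Figure D2:**
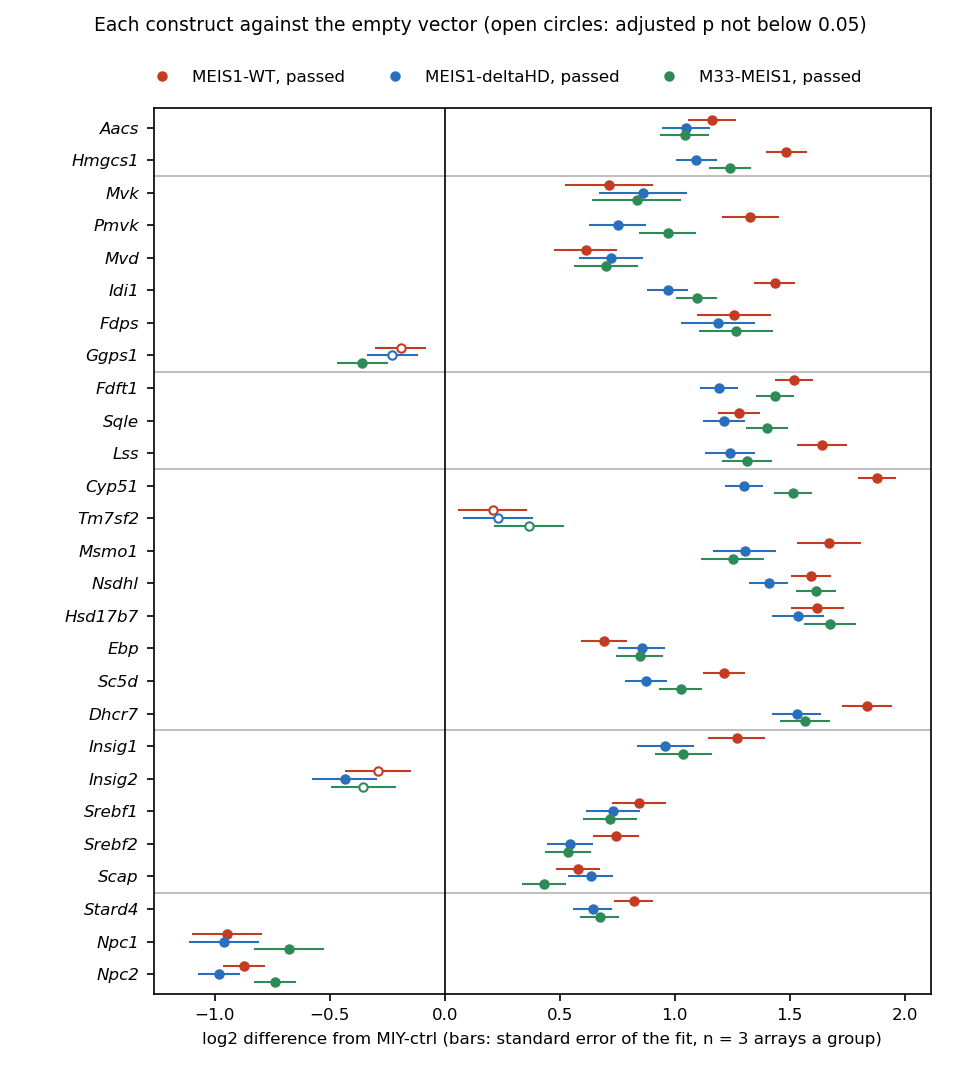
Points give the log2 difference of each gene from MIY-ctrl for the 3 constructs, bars the standard error of the fit (n = 3 arrays a group), and open circles mark differences that did not pass. Most enzymes lie between 0.5 and 2, with Ggps1 and Tm7sf2 near 0, and Npc1 and Npc2 lie below 0.

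From lanosterol to cholesterol, 7 of 8 genes rose with each construct, with median log2 differences of 1.61, 1.30 and 1.38 for MEIS1-WT, MEIS1-deltaHD and M33-MEIS1. Cyp51 signals were 212, 202 and 242 on the control arrays, 806, 867 and 866 on the MEIS1-WT arrays, 514, 576 and 598 on the MEIS1-deltaHD arrays and 674, 637 and 650.3 on the M33-MEIS1 arrays. The groups ranked in the same way on every array: control lowest, then MEIS1-deltaHD, M33-MEIS1 and MEIS1-WT, with no overlap. Cyp51 exceeded control by 1.88 ± 0.0830 in MEIS1-WT cells, 1.30 ± 0.0830 in MEIS1-deltaHD cells and 1.51 ± 0.0830 in M33-MEIS1 cells (adjusted p = 7.82e-15, 1.13e-11 and 1.25e-12). Msmo1 encodes the methylsterol monooxygenase that starts removal of the paired methyl groups. Msmo1 signals were 504, 459.5 and 538 on the control arrays, 1212, 1647 and 2149 on the MEIS1-WT arrays, 1326, 1181 and 1271 on the MEIS1-deltaHD arrays and 1489, 1154 and 1034 on the M33-MEIS1 arrays. All construct arrays stood above control, but the MEIS1-WT arrays were spread widely and overlapped the other constructs. Msmo1 exceeded control by 1.67 ± 0.138 in MEIS1-WT cells, 1.30 ± 0.138 in MEIS1-deltaHD cells and 1.25 ± 0.138 in M33-MEIS1 cells (adjusted p = 7.85e-10, 5.61e-08 and 1.52e-07). Its second probe set was near background, at 11.8 in control, and differed by 0.19, 0.0037 and -0.33, none of which passed. The rise of Msmo1 rests on 1 probe set, whose name marks it as shared by transcript variants.

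Nsdhl encodes the dehydrogenase that removes the methyl groups as carboxylates, a gene of inherited skin disease. Nsdhl signals were 238, 216 and 276 on the control arrays, 757, 739 and 793 on the MEIS1-WT arrays, 625, 656 and 733 on the MEIS1-deltaHD arrays and 787, 764 and 773 on the M33-MEIS1 arrays. MEIS1-WT and M33-MEIS1 arrays were alike and both lay above the MEIS1-deltaHD arrays. Nsdhl exceeded control by 1.59 ± 0.0859 in MEIS1-WT cells, 1.41 ± 0.0859 in MEIS1-deltaHD cells and 1.61 ± 0.0859 in M33-MEIS1 cells (adjusted p = 3.73e-13, 5.13e-12 and 7.37e-13). Hsd17b7 encodes the ketosteroid reductase of the same complex. Hsd17b7 signals were 35.4, 46.1 and 51.9 on the control arrays, 168, 172 and 166 on the MEIS1-WT arrays, 157, 159 and 159 on the MEIS1-deltaHD arrays and 169.9, 163 and 196 on the M33-MEIS1 arrays. The construct groups lay close together and far from control, at 3.79, 3.56 and 3.96 times its mean signal. Hsd17b7 exceeded control by 1.62 ± 0.114 in MEIS1-WT cells, 1.54 ± 0.114 in MEIS1-deltaHD cells and 1.67 ± 0.114 in M33-MEIS1 cells (adjusted p = 4.97e-11, 1.59e-10 and 5.5e-11). The gene has 4 probe sets, and the size of its rise depended on the processing. Its lowest differences over all alternatives were 0.55, 0.59 and 0.53 in the same order, and each still passed.

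Sc5d encodes the desaturase that adds the double bond before the last reduction. Sc5d signals were 175, 156 and 199 on the control arrays, 404, 437 and 448 on the MEIS1-WT arrays, 342, 317 and 349.7 on the MEIS1-deltaHD arrays and 404, 371 and 350.3 on the M33-MEIS1 arrays. Control was lowest, and MEIS1-WT did not overlap MEIS1-deltaHD. Sc5d exceeded control by 1.21 ± 0.0929 in MEIS1-WT cells, 0.88 ± 0.0929 in MEIS1-deltaHD cells and 1.03 ± 0.0929 in M33-MEIS1 cells (adjusted p = 2.17e-10, 6.08e-08 and 6.78e-09). Dhcr7, the reductase mutated in Smith-Lemli-Opitz syndrome, had the largest mean difference over the 3 comparisons of all 27 genes in this fit. Dhcr7 signals were 88.4, 88.9 and 107 on the control arrays, 365, 336 and 442 on the MEIS1-WT arrays, 305, 279 and 328 on the MEIS1-deltaHD arrays and 308, 344 and 285 on the M33-MEIS1 arrays. Every construct array was far above control, and the MEIS1-WT arrays lay above MEIS1-deltaHD and overlapped M33-MEIS1. Dhcr7 exceeded control by 1.84 ± 0.107 in MEIS1-WT cells, 1.53 ± 0.107 in MEIS1-deltaHD cells and 1.57 ± 0.107 in M33-MEIS1 cells (adjusted p = 1.76e-12, 6.2e-11 and 6.14e-11). Ebp, the isomerase that also binds antiestrogens, rose less, by 0.69, 0.86 and 0.85 on the log2 scale, again without overlap with control. Tm7sf2 encodes a sterol reductase of the nuclear and endoplasmic reticulum membrane whose step the lamin B receptor can also carry out. Tm7sf2 had means of 98.1 ± 31.6 (SD, n = 3) in control cells, 113 ± 11.5 in MEIS1-WT cells, 115 ± 12.8 in MEIS1-deltaHD cells and 128 ± 14.5 in M33-MEIS1 cells. None of its differences passed (limma adjusted p = 0.321, 0.246 and 0.0695), and every construct group overlapped control. Median scaling turned all of them into calls, at 0.51, 0.66 and 0.67 (adjusted p = 0.0259, 0.00343 and 0.00418), and so did leaving out the third control array, at 0.41, 0.44 and 0.57. The M33-MEIS1 difference also passed with quantile normalization (adjusted p = 0.0236) and without the third M33-MEIS1 array (0.0452).

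Of the 5 genes of the SREBP control system, 4 rose with each construct, by less than most enzymes. Insig1, a retention protein that is itself an SREBP target, had signals of 115, 77.7 and 124 on the control arrays, 275, 287 and 258 on the MEIS1-WT arrays, 202, 203 and 249 on the MEIS1-deltaHD arrays and 239, 242 and 211 on the M33-MEIS1 arrays. The second control array was the lowest of all and no construct array overlapped control. Insig1 exceeded control by 1.27 ± 0.124 in MEIS1-WT cells, 0.96 ± 0.124 in MEIS1-deltaHD cells and 1.04 ± 0.124 in M33-MEIS1 cells (adjusted p = 1.36e-08, 1.15e-06 and 5.13e-07). Srebf1 encodes SREBP-1, which governs lipogenic genes. Srebf1 signals were 259.6, 184 and 305 on the control arrays, 439, 425 and 493 on the MEIS1-WT arrays, 432, 405 and 410.5 on the MEIS1-deltaHD arrays and 422, 390.4 and 426 on the M33-MEIS1 arrays. Its control arrays varied most, and all construct arrays lay above them. Srebf1 exceeded control by 0.85 ± 0.117 in MEIS1-WT cells, 0.73 ± 0.117 in MEIS1-deltaHD cells and 0.72 ± 0.117 in M33-MEIS1 cells (adjusted p = 3.15e-06, 2.18e-05 and 3.57e-05).

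Srebf2 encodes SREBP-2, the main activator of sterol synthesis. Srebf2 signals were 171, 157 and 171 on the control arrays, 303, 294 and 272 on the MEIS1-WT arrays, 259.6, 228 and 264 on the MEIS1-deltaHD arrays and 214, 285 and 251 on the M33-MEIS1 arrays. Control arrays lay close together below all others, and M33-MEIS1 arrays overlapped both other constructs. Srebf2 exceeded control by 0.75 ± 0.101 in MEIS1-WT cells, 0.54 ± 0.101 in MEIS1-deltaHD cells and 0.54 ± 0.101 in M33-MEIS1 cells (adjusted p = 2.43e-06, 0.000137 and 0.000212). Scap encodes the escort protein. Scap signals were 216, 206 and 183 on the control arrays, 284, 301 and 342 on the MEIS1-WT arrays, 357, 322 and 288 on the MEIS1-deltaHD arrays and 267, 278 and 286 on the M33-MEIS1 arrays. All construct arrays were above control, MEIS1-deltaHD as high as MEIS1-WT. Scap exceeded control by 0.58 ± 0.0970 in MEIS1-WT cells, 0.63 ± 0.0970 in MEIS1-deltaHD cells and 0.43 ± 0.0970 in M33-MEIS1 cells (adjusted p = 4.19e-05, 1.23e-05 and 0.0013). Insig2, a retention protein that is not driven by SREBPs, went the other way. Insig2 signals were 172, 119 and 171 on the control arrays, 123, 107 and 137 on the MEIS1-WT arrays, 98.3, 123 and 105 on the MEIS1-deltaHD arrays and 119, 138 and 93.0 on the M33-MEIS1 arrays. The second control array lay among the construct arrays, so every construct group overlapped control. Insig2 fell with MEIS1-deltaHD by 0.43 ± 0.142 (limma adjusted p = 0.0187). The differences of -0.29 with MEIS1-WT and -0.35 with M33-MEIS1 did not pass (adjusted p = 0.127 and 0.0631). The fall was lost without the first or the third control array (adjusted p = 0.0955 and 0.081), without the first or the third MEIS1-deltaHD array (0.0848 and 0.0561), with quantile normalization (0.0873), without the intensity trend (0.0629), and with median scaling, where the difference was 0.012. Without the second control array, the differences with MEIS1-WT and M33-MEIS1 passed, at -0.45 and -0.51 (adjusted p = 0.0158 and 0.00713).

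**Figure D3:**
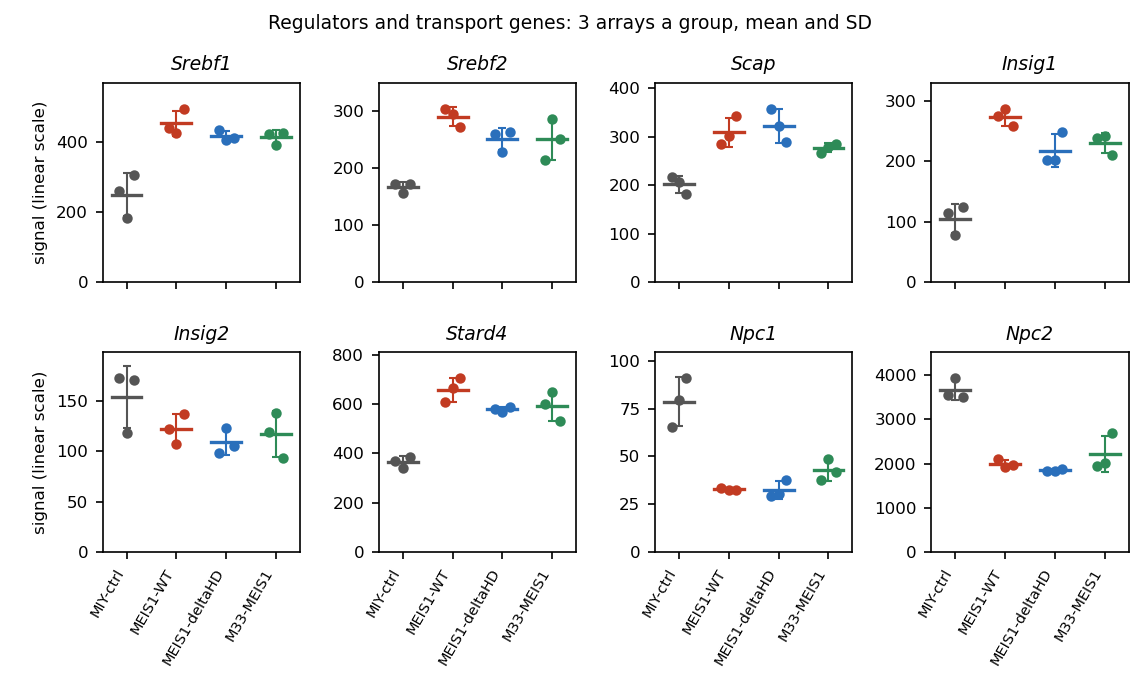
Points are the signals of single arrays on a linear scale that starts at 0, with the mean and SD of 3 arrays a group, for 5 regulators in the SREBP system and 3 transport genes. Construct groups lie above control for Srebf1, Srebf2, Scap, Insig1 and Stard4, overlap it for Insig2, and lie below it for Npc1 and Npc2.

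The 3 genes of cholesterol transport split. Stard4 encodes a soluble sterol carrier that is an SREBP target. Its means were 366 ± 23.1 (SD, n = 3) in control cells, 659 ± 48.6 in MEIS1-WT cells, 579 ± 9.73 in MEIS1-deltaHD cells and 594 ± 61.0 in M33-MEIS1 cells. All 3 differences passed, at 0.82, 0.64 and 0.67 on the log2 scale. Npc1 and Npc2 encode the membrane and soluble proteins that pass cholesterol out of lysosomes. Npc1 had means of 78.5 ± 12.7 in control cells, 32.7 ± 0.494 in MEIS1-WT cells, 32.4 ± 4.57 in MEIS1-deltaHD cells and 42.9 ± 5.54 in M33-MEIS1 cells. It fell by 0.95 ± 0.151 in MEIS1-WT cells, 0.96 ± 0.151 in MEIS1-deltaHD cells and 0.68 ± 0.151 in M33-MEIS1 cells (adjusted p = 2.27e-05, 1.84e-05 and 0.00121). The call with M33-MEIS1 was lost under median scaling, at -0.39 (adjusted p = 0.0859). Npc2 had means of 3661 ± 228, 1994 ± 91.9, 1844 ± 24.8 and 2209 ± 408 in the same order. It fell by 0.87 ± 0.0912 in MEIS1-WT cells, 0.98 ± 0.0912 in MEIS1-deltaHD cells and 0.74 ± 0.0912 in M33-MEIS1 cells (adjusted p = 4.57e-08, 7.07e-09 and 8.58e-07), and neither gene's construct arrays overlapped control.

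Read one by one, the 59 probe sets gave the same picture with more that did not pass. With MEIS1-WT 38 were higher and 6 lower, beside 13.1% and 17.8% of all 31726 probe sets past the filter. With MEIS1-deltaHD 37 were higher and 8 lower, beside 13.8% and 20.8%. With M33-MEIS1 37 were higher and 6 lower, beside 11.8% and 17.1%. Between 1 and 5 probe sets stood for a gene, and 18 genes had more than 1. Lss had probe sets that disagreed: its second brightest probe set differed by 0.83, 0.11 and 0.52, and the MEIS1-deltaHD value did not pass (adjusted p = 0.54). Mvd had a second probe set that differed by 0.28, 0.30 and 0.54, against the larger values of the chosen probe set, and the first did not pass (adjusted p = 0.0605). Sc5d had a second one that differed by 0.54, 0.21 and 0.33 at a control signal of 35.3, and only the first passed. For Hmgcs1, 4 of 5 probe sets passed in each comparison, and the fifth was near background, at 12.3 in control. Scap, with a second probe set at 7.90 in control, lost its call with M33-MEIS1 when probe sets were averaged (log2 difference 0.05, adjusted p = 0.766). Sc5d with MEIS1-deltaHD also missed the threshold in that average (adjusted p = 0.0506).

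Differences between the constructs were small beside their shared difference from the control, and most concerned full-length MEIS1. With MEIS1-WT, 7 members were higher than with MEIS1-deltaHD and 0 lower, where 2.43% and 2.83% of all features passed. All 7 were enzymes: Hmgcs1, Pmvk, Idi1, Fdft1, Lss, Cyp51 and Sc5d. The median over the 27 genes was 0.14, and over all features 0.027. Cyp51 was 1.50 times as high with MEIS1-WT, a log2 difference of 0.58 ± 0.0830 (95% interval 0.41 to 0.75, limma adjusted p = 4.33e-05). Pmvk, the kinase after mevalonate kinase, was higher by 0.58 ± 0.123 (interval 0.32 to 0.83, adjusted p = 0.00394). Idi1, the isoprene isomerase, was higher by 0.47 ± 0.0893 (interval 0.28 to 0.65, adjusted p = 0.00138). None of these 3 genes had overlapping arrays between the groups. Hmgcs1 was higher by 0.39 ± 0.0895 (adjusted p = 0.00739), Lss by 0.40 ± 0.108 (0.0258), Sc5d by 0.34 ± 0.0929 (0.03) and Fdft1 by 0.32 ± 0.0822 (0.017), also without overlap. Signals of every array for these genes are given above with their roles.

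The count of 7 hung on single arrays. It was 3 without the third MEIS1-WT array, 4 without the first MEIS1-deltaHD array and 3 without the second. Lss and Sc5d were lost without the second or the third MEIS1-WT array or any of the MEIS1-deltaHD arrays (adjusted p between 0.0508 and 0.161). Fdft1 was lost without the third MEIS1-WT array (0.136) or the first or second MEIS1-deltaHD array (0.0976 and 0.0758). It was also lost in the mean of its probe sets (0.12). With shared probe sets left out, its difference was 0.16 (limma adjusted p = 0.527). Hmgcs1 was lost without the third MEIS1-WT array (0.0719) or the second MEIS1-deltaHD array (0.0595). With median scaling, or without the intensity trend in limma, 1 member passed, which was Cyp51 in both. Over all features the share of calls that were higher moved from 46.2% to 23.4% with median scaling, which shifted the median of all features by -0.10. Cyp51 passed in all 23 alternative settings, with log2 differences from 0.44 to 0.62. Among members that did not pass, Fdps differed by 0.072 (interval -0.26 to 0.40) and Sqle by 0.066 (interval -0.12 to 0.25). Srebf2, the activator, differed by 0.20 (interval -0.0079 to 0.41) and Insig1 by 0.31 (interval 0.056 to 0.57), and neither passed.

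**Figure D4:**
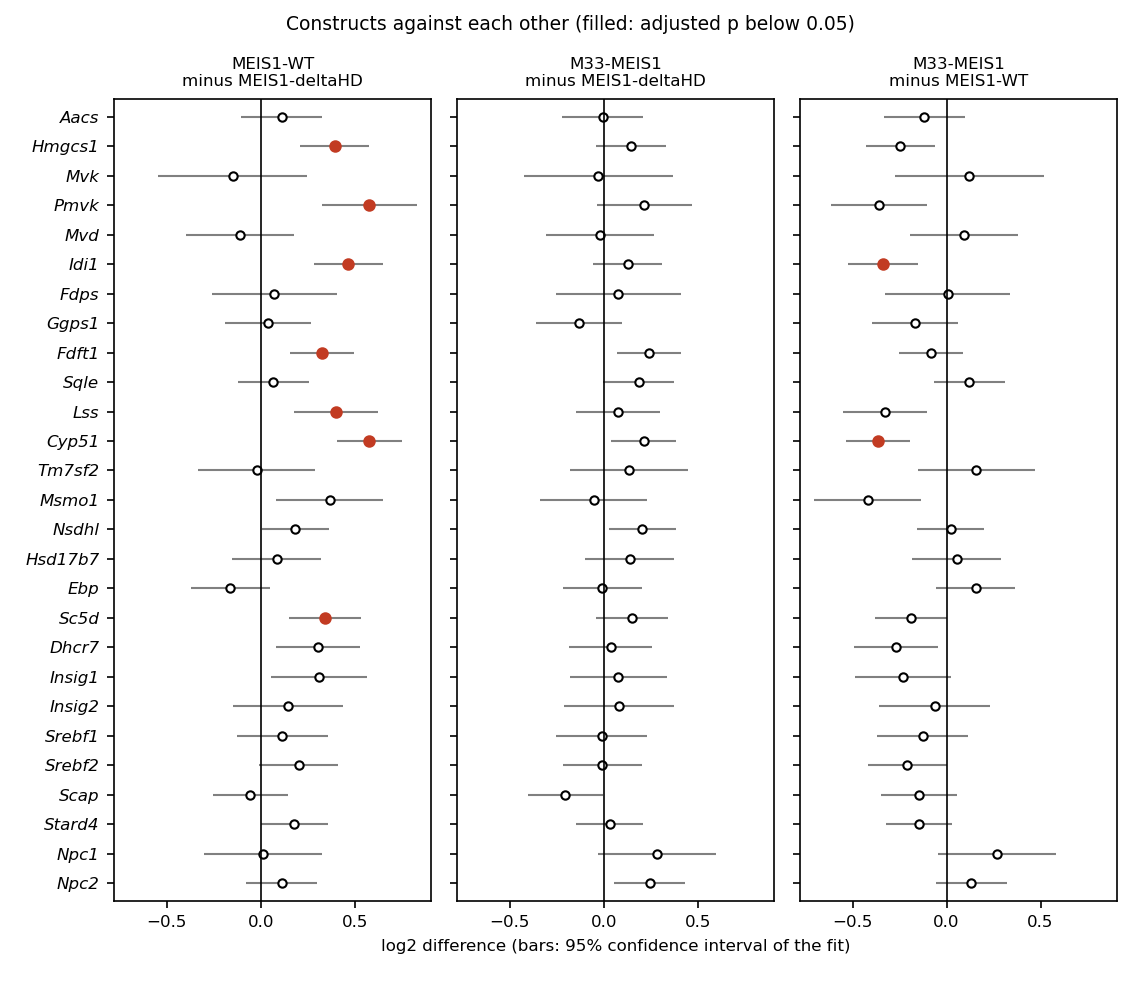
Points give the log2 difference of each gene between 2 constructs and bars its 95% interval, with filled points where the adjusted p was below 0.05 (n = 3 arrays a group). The first panel has 7 filled points, all to the right of 0, the second none, and the third 2, Idi1 and Cyp51, to the left of 0.

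The fusion M33-MEIS1 was set against both forms of MEIS1. Against MEIS1-deltaHD, 0 members passed in either direction, where 0.67% of all features were higher and 0.04% lower. At an unadjusted limma p below 0.05 there were 5 of the 27 genes, beside 2145 of all 19990 features. The median over the 27 genes was 0.078, beside 0.025 over all features. Fdft1 had the smallest adjusted p, at 0.24 (interval 0.073 to 0.41, limma adjusted p = 0.237). Npc1 differed by 0.28 (interval -0.031 to 0.60), which spans 0. With median scaling the members' median was -0.058, and 80% of calls over all features were higher, against 94.4%.

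Against MEIS1-WT, 0 members were higher and 2 lower with M33-MEIS1, where 4.11% and 2.36% of all features passed. Cyp51 was lower by 0.36 ± 0.0830 (interval -0.54 to -0.19, limma adjusted p = 0.00581), and Idi1 by 0.34 ± 0.0893 (interval -0.52 to -0.15, adjusted p = 0.0192). Neither overlapped between the groups. The median over the members was -0.13, beside -0.0016 over all features. This count also moved with single arrays: it was 5 without the first MEIS1-WT array, 1 without the second or the third, 4 without the first M33-MEIS1 array and 1 without the third. Idi1 was lost in each of the cases with 1 call (adjusted p = 0.0727, 0.106 and 0.163). Cyp51 was lost with median scaling (0.0958), with the mean of its probe sets (0.0592) and without the trend (0.0621). This comparison and the one between MEIS1-WT and MEIS1-deltaHD share the MEIS1-WT arrays. As a summary of single arrays, the log2 value of each of the 19 enzymes was set against its mean over all 12 arrays, and the median enzyme was taken. It stood at 0.36, 0.40 and 0.49 on the MEIS1-WT arrays, 0.18, 0.13 and 0.23 on the MEIS1-deltaHD arrays and 0.32, 0.32 and 0.15 on the M33-MEIS1 arrays, against -0.96, -0.94 and -0.83 on the control arrays. The MEIS1-WT arrays were the highest in this summary, and M33-MEIS1 overlapped MEIS1-deltaHD.

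Genes next to the pathway were read from lists kept beside the members. Of 14 genes of fatty acid synthesis and other SREBP targets, 10, 9 and 9 were higher and 1, 0 and 1 lower in MEIS1-WT, MEIS1-deltaHD and M33-MEIS1 cells, with medians of 0.55, 0.54 and 0.56. Acly, which supplies cytosolic acetyl-CoA to both pathways, differed by 0.93, 0.88 and 0.88, and Fasn, the fatty acid synthase, by 0.84, 0.87 and 0.86. Scd1, the desaturase of stearate, differed by 2.33, 1.70 and 2.02 (limma adjusted p = 1.36e-08, 1.89e-06 and 2e-07). Of 7 measured genes of SREBP cleavage and turnover, 1 was higher and 1 lower with MEIS1-WT, and 0 were higher and 2 lower with each other construct. That is 2 of 7 passing in each comparison, near the share of all features that passed in either direction. Mbtps2 encodes the protease of the final SREBP cut and was lower, at -0.36, -0.47 and -0.36 (adjusted p = 0.00312, 0.000224 and 0.00414). Mbtps1, which encodes another SREBP protease, differed by 0.25, 0.13 and 0.12. Single genes of these lists were not tested under other scalings, so whether falls of this size hold there is not known. Of 12 genes that use isoprenoids, 5, 4 and 3 were higher and 0, 1 and 0 lower. Beside these lists, 13.3%, 13.8% and 12.4% of all features were higher and 19.4%, 22.7% and 18.3% lower. Zmpste24, the protease that trims farnesylated prelamin A, differed by 0.60, 0.83 and 0.71, and Nus1, a subunit of the dolichol-chain synthase, by 0.37, 0.41 and 0.31 (adjusted p = 0.000313, 9.03e-05 and 0.00229).

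Genes of cholesterol export, read in a list with the LXR sterol sensors, went down for the most part. Of 9 genes of this list that were measured, 2 were higher in each comparison, and 5, 6 and 6 were lower. Their medians were -0.78, -0.83 and -0.65. The sensors themselves gave no call. Nr1h2 was not measured, and Nr1h3 differed by -0.16, -0.51 and -0.24, none of which passed. The shares of all features were 13.3%, 13.8% and 12.4% higher and 19.4%, 22.7% and 18.3% lower. Abca1 and Abcg1, the pumps that load cholesterol onto lipoproteins, differed by -2.40, -1.69 and -1.50 and by -1.32, -1.41 and -0.93 in the order used above, and each passed. Lipa, the lysosomal acid lipase that frees cholesterol from its esters, differed by -0.78, -0.53 and -0.60 (limma adjusted p = 2.89e-06, 0.000325 and 0.000119).

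Several markers of other cells and of cycling also differed between the groups. All 14 tested monocyte and macrophage genes were lower with MEIS1-WT, and 13 with each other construct. The summed signal of the 15 measured was 15205 to 17417 on control arrays, 776 to 923 in MEIS1-WT cells, 2856 to 3095 in MEIS1-deltaHD cells and 4565 to 5030 in M33-MEIS1 cells. None of the groups overlapped in that sum, and control cells had by far the most. Of 17 genes of the G1/S transition, 16, 17 and 16 were higher, with summed signals of 13640 to 16442 in control, 25859 to 27102 in MEIS1-WT cells, 25567 to 26300 in MEIS1-deltaHD cells and 25433 to 27243 in M33-MEIS1 cells. Against control, 5, 2 and 2 of 8 secondary granule genes were lower and 0, 3 and 3 higher in the order used above. Of 7 primary granule genes, 3, 2 and 2 were lower and 1, 4 and 5 higher. Of 8 mast cell and basophil genes, 6, 5 and 0 were lower and 1, 2 and 4 higher. Of 7 megakaryocyte genes, 2, 3 and 2 were lower and 1, 0 and 1 higher. Over all features, 19.4%, 22.7% and 18.3% were lower and 13.3%, 13.8% and 12.4% higher. The 2 secondary and 2 primary granule genes lower with MEIS1-deltaHD and with M33-MEIS1 are near those shares. The part of these markers in the rise of the sterol enzymes and the fall of Npc1, Npc2 and the export genes was not tested. Between MEIS1-WT and MEIS1-deltaHD, where 7 enzymes were higher, 11 of 14 monocyte genes and 6 of 8 secondary granule genes were lower. So were 6 of 7 primary granule genes and 3 of 8 mast cell and basophil genes. Summed secondary granule signal was 708 to 823 against 2660 to 3281. Of 17 G1/S genes 1 was higher, and of 7 megakaryocyte genes 3 were higher and 0 lower. Beside these, 2.43% of all features were higher and 2.83% lower. With M33-MEIS1 against MEIS1-WT, 12 of 14 monocyte genes and 7 of 7 primary granule genes were higher. So were 6 of 8 secondary granule genes and 8 of 8 mast cell and basophil genes, while 1 of 7 megakaryocyte genes was lower. Over all features, 4.11% were higher and 2.36% lower there. The part of these markers in the enzyme differences between constructs was not tested.

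The control arrays differed among themselves. The second one was the lowest control array for 17 of the 27 members, the first for 6 and the third for 4. The median difference with MEIS1-WT was 1.08 without the second control array and lay between 1.08 and 1.29 over all single arrays left out. The count of higher members with a construct stayed between 21 and 23 whichever array was left out.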

How the data were processed

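The deposited values are signal intensity per probe set on 12 arrays, which the authors computed with GCOS 1.2, per the submitters' processing notes, with a 2% trimmed mean of 100 on each array. Further settings of that step are unknown here. The authors' scaling was kept, 64 control probe sets were left out, and log2(signal + 16) was taken. Probe sets above the 40th percentile of an array on at least 3 arrays stayed in. limma 3.58.1 in R 4.3.3 was fitted over all 4 groups (8 residual degrees of freedom, intensity trend), with 6 comparisons and Benjamini-Hochberg adjustment over all features. Its procedure was tested on simulated data. The number of arrays limits the precision: an exact permutation test of 3 against 3 cannot go below 0.1. If the arrays of a group are not separate cultures, the p-values cover technical spread.

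Symbols came from the platform annotation: 34945 probe sets had 1 symbol, 932 several and 9160 none, and none of those with several held a member. The members and lists were chosen with earlier results of these data known. Values of every array are given for the 12 members with the largest mean difference from control, the regulators and members that passed between constructs, and for other lists at most 3 genes with the smallest p with MEIS1-WT. Alternatives covered the pseudocount, filter, scaling, probe set choice, trend, replicate block, arrays in the fit and each array left out.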

Additional observations from a re-analysis of the deposited data

How the results depend on the processing

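The counts of members higher than control lay between 18 and 23 in all 23 alternatives for the 3 constructs. Of the members called, 21 of 24 with MEIS1-WT kept their call in every alternative that measured them. So did 21 of 25 with MEIS1-deltaHD and 21 of 25 with M33-MEIS1. Between MEIS1-WT and MEIS1-deltaHD 1 of 7 did, and between M33-MEIS1 and MEIS1-WT 0 of 2. Pmvk and Srebf1 were not measured with shared probe sets left out. The median difference of the members from control moved with the scale. With a pseudocount of 1 it was 0.99 for MEIS1-deltaHD. With 64 it was 1.00, 0.74 and 0.80 for MEIS1-WT, MEIS1-deltaHD and M33-MEIS1, and with median scaling 1.55, 1.34 and 1.34. With the mean of a gene's probe sets it was 0.85, 0.72 and 0.72. With shared probe sets left out it was 0.82, 0.70 and 0.83, over the 25 genes still measured. Median scaling also gave 0.024 between MEIS1-WT and MEIS1-deltaHD and -0.058 between M33-MEIS1 and MEIS1-deltaHD. With median scaling, members lower with M33-MEIS1 than control numbered 1, those higher with MEIS1-WT than MEIS1-deltaHD 1, and those lower with M33-MEIS1 than MEIS1-WT 0. Without the intensity trend the last 2 counts were 1 and 0, and with only the 6 arrays compared the last was 4. With single arrays left out, the MEIS1-WT median lay between 1.08 and 1.29, members higher with MEIS1-WT than MEIS1-deltaHD between 3 and 8, members lower with M33-MEIS1 than control between 2 and 4, and members lower with M33-MEIS1 than MEIS1-WT between 1 and 5. Insig2 turned to 0.012 with MEIS1-deltaHD under median scaling (limma adjusted p = 0.969), and Msmo1 to -0.33 with M33-MEIS1 with shared probe sets left out (0.359), where only a probe set near background remained. The cause of the other changes was not tested.

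Over all features, calls between M33-MEIS1 and MEIS1-deltaHD fell from 142 to 88 without a filter, 70.0 with median scaling and 31 without the trend, and those between MEIS1-WT and MEIS1-deltaHD from 1050.0 to 605 without the trend. No pairing by replicate number was seen in the deviations from the group means. There, 0 of 18 same-numbered pairs and 0 of 36 pairs with different numbers correlated above 0.1. Among the 12 arrays, 1 correlated best with its own number. Whether arrays of the same number came from the same experiment cannot be told from this. With the replicate block 22, 22 and 22 members were higher than control and 7 higher with MEIS1-WT than MEIS1-deltaHD, and no call of a member changed. Dim probe sets have only loose values, since background sets their signal.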
